A study of Rattus norvegicus with 6 samples.

Results

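Genes of glucocorticoid action were examined in the mesenterial fat of newborn rats whose dams were fed with or without vitamin D. They comprised the glucocorticoid receptor, a second steroid receptor, the enzymes that make or destroy the active hormone, and target genes of the receptor. The members were 10 genes given by symbol: Nr3c1, Nr3c2, Hsd11b1, Hsd11b2, Fkbp5, Tsc22d3, Sgk1, Klf9, Zbtb16 and Errfi1. A probe set, the group of array probes read as a single value, was taken where the platform annotation gave it exactly 1 symbol and that symbol was a member. This gave 13 of the 31099 probe sets in the value table and covered 9 of the 10 genes. No probe set was named Zbtb16, so it has no value here.

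All 6 samples were total RNA from mesenterial adipose tissue of wildtype Sprague-Dawley newborns, each hybridised to 1 Affymetrix rat genome array. In the adequate group, 3 arrays, the dams' feed held 1000 IU of vitamin D per kg. In the deficient group, 3 arrays, it held 0 IU per kg. The labels give no litter or sex and do not state that the arrays are separate animals, so p-values measure the spread between these samples only, which may be technical. With 3 arrays a group, precision is low throughout.

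Glucocorticoids, corticosterone in the rat, cross the cell membrane and bind the receptor encoded by Nr3c1, which chaperones hold ready in the cytosol. The bound receptor enters the nucleus and switches genes on or off. How much hormone reaches it in fat depends on Hsd11b1, which regenerates active hormone from its inert 11-keto form, and on Hsd11b2, which does the reverse. In fat, glucocorticoids are known for promoting fat cell differentiation and for acting on lipid storage and release.

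RefSeq promoter sequences (build GRCr8) were matched by symbol for 6 of the 10 members, with 11 start sites in all. Nr3c2, Hsd11b1, Hsd11b2 and Zbtb16 had no entry. In the 250 bases before each start, the half-site of the glucocorticoid receptor, AGAACA on either strand, was found at 0 of the 11 member starts, and at 17.5% of the 33469 windows of the same length. Its palindrome of a pair of half-sites 3 bases apart was in 0.012% of all windows and in 0 of the 11. Half-sites of the vitamin D receptor were searched on either strand in the form AGGTCA, and with the letters varied as in GGTTCA, as in GGGTCA and, last, as in the form AGTTCA. Any of these was in 4 of the 11, at starts of Nr3c1, Sgk1 and Tsc22d3, and in 39.1% of all windows. A TATA box, TATAAA on the strand of the gene, was at 4 of the 11 starts and at 8.06% of all windows. The last 80 bases before the start are printed 5′ to 3′ for the target genes, with TATAAA in capitals, to show the starts with a TATA box and, for Klf9 and Fkbp5, the only start listed, which has none.
Sgk1, chr1:24807232-24807311, minus strand: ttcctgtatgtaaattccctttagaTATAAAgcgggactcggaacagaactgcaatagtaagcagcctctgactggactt
Sgk1, chr1:24804832-24804911, minus strand: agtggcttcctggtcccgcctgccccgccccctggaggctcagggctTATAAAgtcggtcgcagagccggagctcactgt
Tsc22d3, chrX:109010035-109010114, minus strand: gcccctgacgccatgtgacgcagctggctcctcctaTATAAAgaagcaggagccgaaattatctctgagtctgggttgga
Errfi1, chr5:166606761-166606840, plus strand: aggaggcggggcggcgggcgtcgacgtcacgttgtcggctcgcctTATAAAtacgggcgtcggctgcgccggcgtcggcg
Klf9, chr1:230126566-230126645, plus strand: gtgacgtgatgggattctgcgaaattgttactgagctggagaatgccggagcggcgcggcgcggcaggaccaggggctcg
Fkbp5, chr20:6543556-6543635, minus strand: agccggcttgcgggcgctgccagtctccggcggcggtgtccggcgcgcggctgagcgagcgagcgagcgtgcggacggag

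These matches are a description of letters in short windows, and the array values do not name the start site that each probe set reads.

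Technical readings set deficient arrays 1 and 2 apart. Bacterial hybridisation controls, which are added in set amounts, read 5.99 and 8.12 times the adequate mean on them and 0.955 times on deficient array 3. The ratio of the 3′ to the 5′ beta-actin probe sets, a measure of RNA integrity, was 7.56, 6.80 and 2.35 in the deficient group and from 2.40 to 4.81 in the adequate group. Of 12 adipocyte marker genes named on the array, 7 were bright enough to test, among them Fabp4 and Lpl, while the defining markers Adipoq, Lep, Pparg, Plin1 and Cidec did not reach the brightness filter. The mean of the 8 fibroblast markers was 0.64, 0.46 and -0.13 log2 units from the adequate mean on deficient arrays 1, 2 and 3, and that of the 7 tested macrophage markers at -0.64, -0.63 and -0.02. The 5 tested hepatocyte markers had a mean of 1.16 on adequate array 3 and between -0.98 and -0.25 on the other arrays, and the 3 tested intestinal markers one of 1.71 and between -1.32 and -0.47. Of 7 kidney and adrenal markers, 6 were below the filter. In bulk tissue, fewer cells of a type and less RNA per cell cannot be told apart.

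The comparison asks whether these genes differed with the vitamin D in the dams' feed. No member passed the test. The receptor gene Nr3c1 read 1.15 times the adequate level, within the spread between arrays. Hsd11b1 and Hsd11b2 had their lowest values on different deficient arrays, and the target genes ranged from a log2 change of -0.15 for Tsc22d3 to 0.51 for Klf9. Probe sets were tested where their mean log2 signal was at or above the 40th percentile of 6.46, a signal of 88.2. By limma with Benjamini-Hochberg adjustment, 0 of 18625 probe sets (0%) had an adjusted p under 0.05, and the smallest adjusted p was 0.344. Of the 8 members tested, each by its brightest probe set, 0 had an unadjusted p under 0.05, where 14.9% of the 10591 genes tested in this way did. The groups did not overlap for 0 of the 8, against 18.2% of all genes. Every change is the deficient minus the adequate mean of log2 signals.

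**Figure D1:**
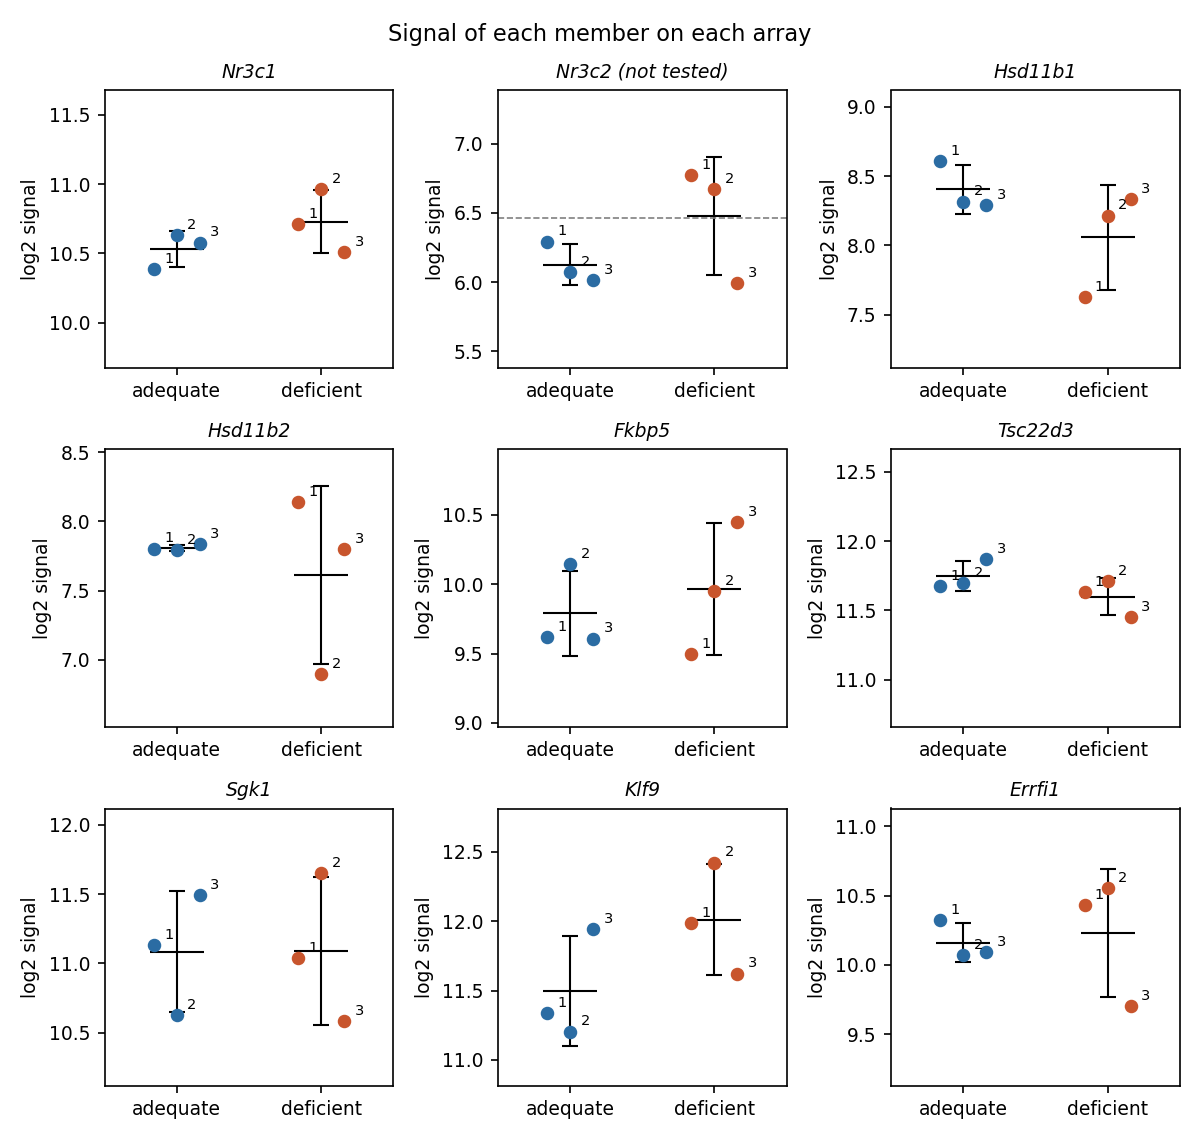
Log2 signal (vertical axis, 2 log2 units high in each panel) of 9 members on the 3 adequate (blue) and 3 deficient (orange) arrays, numbered by replicate, with the group mean as a bar and the SD as whiskers. The groups overlap in every panel; the dashed line in the panel of Nr3c2 is the filter at 6.46.

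Nr3c1, the glucocorticoid receptor gene, read 1338, 1586 and 1527 intensity units with adequate and 1679, 1997 and 1458 with deficient maternal feed. Deficient arrays 1 and 2 were above all adequate arrays and deficient array 3 was within their range. Its log2 change came to 0.20 ± 0.17 (SE), with a 95% interval of -0.17 to 0.57 and an adjusted p of 0.557 by limma. The interval reaches from a fold of 0.888 to 1.48, so a doubling or a halving of the receptor transcript lies outside it. It was -0.022 with deficient array 3 as the only deficient array. With the mean log2 signal of the hybridisation controls added to the fit, the change was -0.049. Those controls were high only on deficient arrays 1 and 2. Both fits thus rest mainly on deficient array 3 against the adequate arrays. A further probe set for Nr3c1 was dim, with signals from 4.27 to 36.3, and was not tested.

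Nr3c2, the mineralocorticoid receptor gene, whose product also binds corticosterone, had a dim probe set just under the filter, at the 38.2th percentile of mean log2 signal. Its signals were 78.3, 67.2 and 64.7 with adequate and 109, 102 and 63.7 with deficient maternal feed. As for Nr3c1, deficient arrays 1 and 2 were above all adequate arrays, and deficient array 3 was the lowest of all. It was not tested and no fold is given.

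Hsd11b1, the enzyme that regenerates active glucocorticoid, read 390, 319 and 313 with adequate and 198, 297 and 323 with deficient maternal feed. Deficient array 1 was the lowest by far, and deficient array 3 lay within the adequate range. The fitted log2 change was -0.35 ± 0.23 (SE), a fold of 0.787, with a 95% interval of -0.86 to 0.17 and an adjusted p of 0.472. Hsd11b1 is also abundant in liver, and the part of the hepatocyte markers in its values was not tested.

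Hsd11b2, the enzyme that inactivates glucocorticoid and is best known in the kidney, read 223, 222 and 228 on the adequate arrays, an SD of 0.02 in log2 units. On the deficient arrays it read 282, 119 and 223. The deficient arrays thus held the highest and the lowest value, and deficient array 3 read like the adequate arrays. The log2 range over the 6 arrays was 1.24, wider than that of 86.5% of tested probe sets. The change was -0.20 ± 0.30 (SE), with a 95% interval of -0.87 to 0.47 and an adjusted p of 0.759, and it was 0.16 without deficient array 2.

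The signals of Hsd11b1 and Hsd11b2 stood in a different relation on deficient arrays 1 and 2. Each value is from a single array, and the technical readings set both of these arrays apart. Enzyme protein and activity were not measured. The log2 difference of Hsd11b1 minus Hsd11b2, set to the adequate mean, was 0.21, -0.07 and -0.14 on the adequate arrays. It was -1.11 on deficient array 1, 0.72 on deficient array 2 and -0.06 on deficient array 3, so both extremes were deficient arrays. H6pd, which supplies the cofactor that Hsd11b1 needs in the endoplasmic reticulum, read 8.02, 8.49 and 7.98 in log2 signal on the adequate arrays. On the deficient arrays it read 7.51, 7.49 and 8.16. Arrays 1 and 2 were below and array 3 within the adequate range, and the change was -0.45 ± 0.25 (SE, adjusted p 0.406 by limma).

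Fkbp5, a co-chaperone that the receptor induces and that in turn dampens it, read 787, 1133 and 780 on the adequate arrays by its brighter probe set. On the deficient arrays it read 723, 991 and 1396, so that they held both the lowest and the highest value. In log2 units the change was 0.17 ± 0.25 (SE), with a 95% interval of -0.38 to 0.73 and an adjusted p of 0.739. The dimmer probe set, also tested, had a change of -0.12 ± 0.26 (adjusted p 0.838), the opposite sign. It read 207, 263 and 269 with adequate and 202, 177 and 321 with deficient maternal feed. Both probe sets were highest on deficient array 3. Without that array the change of the brighter set was -0.066.

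Tsc22d3, which encodes the anti-inflammatory protein GILZ, was the steadiest member. It read 3269, 3321 and 3744 with adequate and 3172, 3357 and 2803 with deficient maternal feed. Its log2 range of 0.42 was narrower than that of most tested probe sets, whose median range was 0.75. The log2 change was -0.15 ± 0.15 (SE), with a 95% interval of -0.48 to 0.18 and an adjusted p of 0.629. Deficient array 3, where Fkbp5 was highest, had the lowest value of Tsc22d3.

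Sgk1, a kinase induced by both receptors that promotes sodium uptake, read 2244, 1583 and 2884 with adequate and 2100, 3213 and 1536 with deficient maternal feed. High and low values occurred in both groups. Its log2 change came to 0.01 ± 0.28 (SE), with a 95% interval of -0.62 to 0.63 and an adjusted p of 0.994. The direction is not settled, since quantile normalization gave -0.0083.

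Klf9, a transcription factor gene induced by glucocorticoids and by thyroid hormone, had the largest change of the 8 tested members. It read 2590, 2359 and 3940 with adequate and 4058, 5490 and 3150 with deficient maternal feed. Adequate array 3 was above deficient array 3, so the groups overlapped. The fitted log2 change was 0.51 ± 0.24 (SE), a fold of 1.43, with a 95% interval of -0.03 to 1.06 and an adjusted p of 0.360 by limma. Without deficient array 3 it was 0.71 with an adjusted p of 0.0459, in a fit where 19.4% of all probe sets passed. With array weights it was 0.71 with an adjusted p of 0.0372, where 18.6% of all probe sets passed. With deficient array 3 as the only deficient array it was 0.13, and in the fit with the hybridisation covariate 0.10. Of the 8 fibroblast markers 7 had a positive change (median 0.42, but -0.018 after quantile normalization), against 4148 of all 10591 genes. The other, Thy1, had -0.92 ± 0.26 (SE, adjusted p 0.344 by limma). The mean of the markers was also higher on deficient arrays 1 and 2 and not on deficient array 3. The part of fibroblasts in the Klf9 values was not tested. The other probe sets of Klf9 were dim, with signals from 9.76 to 75.3 and from 2.02 to 26.3, and were not tested.

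Errfi1, a feedback inhibitor of epidermal growth factor receptor signalling that glucocorticoids induce, read 1279, 1077 and 1091 on the adequate arrays. On the deficient arrays it read 1383, 1506 and 832. Arrays 1 and 2 were above and array 3 below every adequate array. In log2 units the change was 0.07 ± 0.22 (SE), with a 95% interval of -0.43 to 0.56 and an adjusted p of 0.893. Without deficient array 3 it was 0.33 (unadjusted p 0.0383, adjusted 0.120), and with that array as the only deficient array it was -0.46, where Fkbp5 was 0.66. That last fit takes its spread from the adequate arrays only and assumes that the lone deficient array varies like them. In it 6.52% of probe sets, Errfi1 and Fkbp5 among them, had an unadjusted p under 0.05, and nothing is read from these p.

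**Figure D2:**
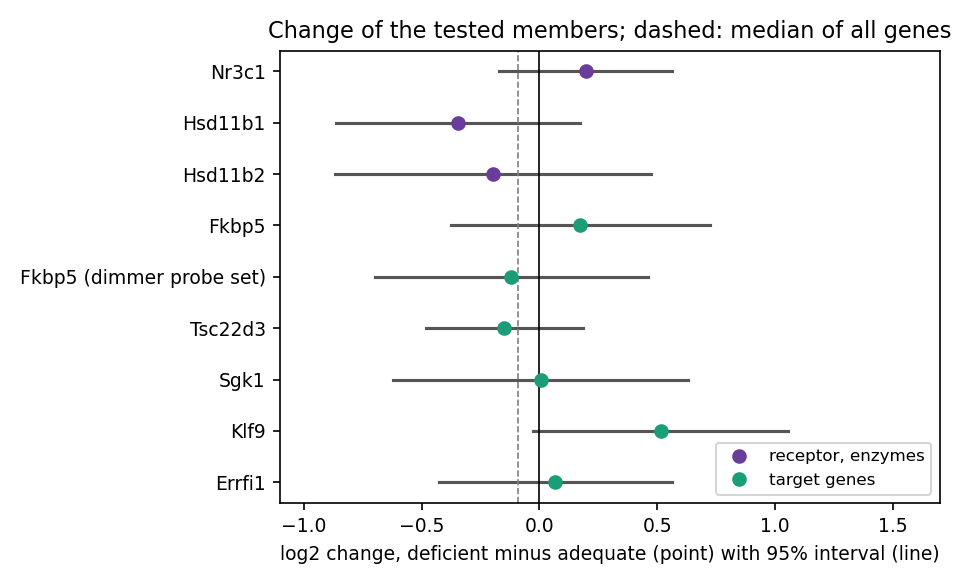
Log2 change, deficient minus adequate (horizontal axis), of the 9 tested probe sets of the members, with 95% intervals from limma; purple points are the receptor and enzymes and green points the target genes. All 9 intervals include 0, and that of Klf9 reaches from -0.03 to 1.06; the dashed line is the median of all genes tested, -0.09.

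Set side by side, the median changes of the receptor and enzyme genes and of the target genes had opposite signs. Each class held changes in both directions. Of the 3 receptor and enzyme genes tested, 1 had a higher and 2 a lower value in the deficient group, with a median log2 change of -0.20. Of the 5 target genes tested, 4 had a higher and 1 a lower value, with a median of 0.07. The 4 included Sgk1, at 0.01, and Fkbp5, whose dimmer probe set had -0.12. Over all 10591 genes tested the median was -0.09 and 60.8% were lower. The mean deviation of the receptor and enzyme genes from the adequate mean was between -0.02 and 0.02 with adequate and -0.09, -0.22 and -0.03 with deficient maternal feed. The mean over all genes tested was likewise lower on every deficient array, at -0.07, -0.10 and -0.04. For the target genes the adequate arrays had -0.04, -0.11 and 0.15 and the deficient ones 0.06, 0.40 and -0.09, so the groups overlapped. These summaries were not tested, and both medians moved with the treatment of the deficient arrays. With deficient array 3 alone, the medians were -0.022 for the receptor and enzyme genes and -0.29 for the target genes.

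The SD of log2 signals was larger in the deficient than in the adequate group for every tested member. For Klf9 (0.40 against 0.39) and Tsc22d3 (0.13 against 0.11) it was larger by little. The share of all genes with a larger SD in the deficient group was not counted, so this is not read as particular to the members. Deficient array 2 held the highest value of 4 of the 8 tested members, Nr3c1, Sgk1, Klf9 and Errfi1, and the lowest of Hsd11b2. Deficient array 3 held the lowest value of 3 members, Tsc22d3, Sgk1 and Errfi1, and the highest of Fkbp5. Of the target genes, Fkbp5 was thus highest where 3 of the other 4 were lowest. How often each array held an extreme over all genes was not counted.

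**Figure D3:**
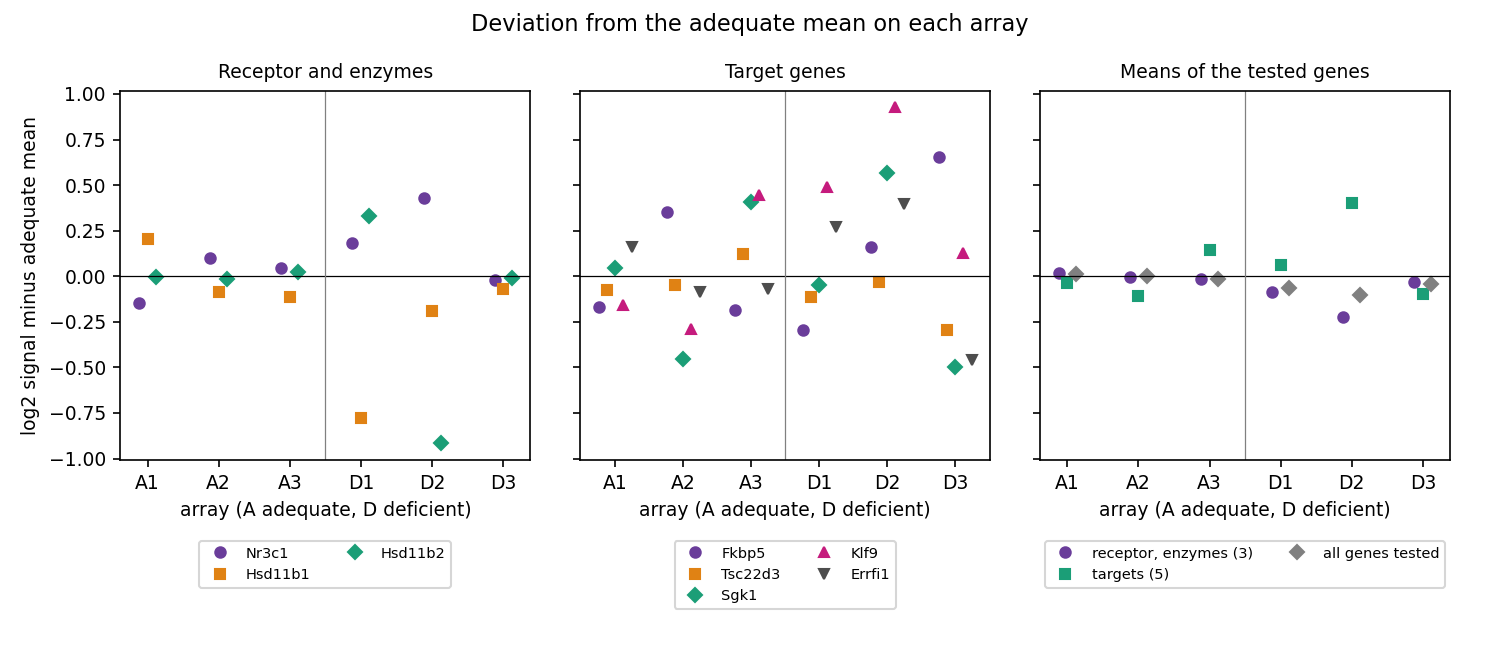
Log2 signal minus the adequate mean (vertical axis) on adequate arrays A1 to A3 and deficient arrays D1 to D3, for the receptor and enzymes (left), the target genes (middle) and the means of both classes and of all genes tested (right). On D2, Klf9, Sgk1, Nr3c1 and Errfi1 are at their highest and Hsd11b2 at its lowest, and on D3 Fkbp5 is at its highest.

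Other genes of the pathway were taken from lists by function, and those named are mainly the genes with the smallest unadjusted p in each list. None passed the adjusted threshold in either direction. Among the chaperones that fold and carry the receptor, 12 of 15 genes were tested, 4 were higher and 8 lower, and the median log2 change was -0.10. At an unadjusted p under 0.05, 0 were higher and 3 lower, where 4.75% of all genes were higher and 10.1% lower. The groups did not overlap for 3 of the 12, these same genes, against 18.2% of all genes. Stip1, which links the chaperones Hsp70 and Hsp90, read 10.88, 10.59 and 10.81 in log2 signal on the adequate and 10.21, 9.99 and 10.31 on the deficient arrays, a change of -0.59 ± 0.16 (SE, adjusted p 0.344). Hspa4, a chaperone of the Hsp110 family, had -0.68 ± 0.27 and Stub1, a ubiquitin ligase that works with chaperones, -0.40 ± 0.16 (SE, adjusted p 0.344 for each). Dnaja1, an Hsp40 co-chaperone, had 0.23 ± 0.15 (adjusted p 0.470).

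Among coregulators, 13 of 15 genes were tested, 6 higher and 7 lower, with a median of -0.09, which was 0.018 where probe sets were averaged by gene. At an unadjusted p under 0.05, 2 were higher and 2 lower, against 4.75% and 10.1% of all genes. The groups did not overlap for 4 of the 13, 1 higher and 3 lower, against 18.2% of all genes. Ep300, a histone acetyltransferase, read 10.83, 11.19 and 10.82 in log2 signal with adequate and 12.31, 12.80 and 11.02 with deficient maternal feed. Deficient array 3 lay within the adequate range, and the change was 1.10 ± 0.36 (SE, adjusted p 0.344). Crebbp, its paralog, had 0.40 ± 0.15 by its brightest probe set, where the groups did not overlap, and its other tested sets gave 0.24 and -0.19. Smarca4, the motor of a chromatin remodelling complex, had -0.47 ± 0.16 without overlap, but its other tested probe set gave 0.54, and Hdac3, a histone deacetylase, had -0.48 ± 0.21 (adjusted p 0.344 for these genes). Hdac3 read 9.61, 9.60 and 10.32 in the deficient group, and array 3 lay among the adequate arrays.

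Among other genes that glucocorticoids induce, 30 of 36 were tested, 13 higher and 17 lower, with a median of -0.06, which was 0.10 with deficient array 3 as the only deficient array and 0.058 with the hybridisation covariate. At an unadjusted p under 0.05, 1 was higher and 6 lower, against 4.75% and 10.1% of all genes. The lower ones included Dusp1, a phosphatase that switches off MAP kinases, at 12.13, 12.40 and 11.48 in log2 signal on the adequate and 10.94, 11.19 and 10.71 on the deficient arrays. Its change was -1.05 ± 0.23 (SE, adjusted p 0.344). Zfp36, which speeds the decay of cytokine mRNA, had -0.83 ± 0.23, Ddit4, an inhibitor of mTOR, -0.61 ± 0.19, and Nfil3, a transcription factor, -0.56 ± 0.19 (adjusted p 0.344 for each). The groups did not overlap for these 4 genes, nor for 5 others of the list: Rasd1 was lower, and Anxa1, Per2, Foxo3 and Cavin2 were higher. In all that was 9 of 30, against 18.2% of all genes. Dusp1 and Zfp36 are also induced by stress or other signals. The choice to name Rasd1, Anxa1, Per2, Foxo3 and Cavin2 was made after seeing their values. The gene that was higher at an unadjusted p under 0.05 was Anxa1, an anti-inflammatory protein gene, at 0.46 ± 0.16 (adjusted p 0.344). It read 12.64, 12.86 and 12.69 on the adequate and 13.13, 13.37 and 13.07 on the deficient arrays, without overlap.

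Of 11 genes of hormone supply and clearance, 3 were tested and all 3 had lower values, with a median of -0.36 and 0 at an unadjusted p under 0.05. Of all genes 60.8% were lower. The median was -0.0066 with deficient array 3 as the only deficient array and -0.072 with the hybridisation covariate. Besides H6pd these were Por, which passes electrons to steroid-metabolising enzymes, at -0.36 ± 0.21 (SE), and Hsd17b11, at -0.34 ± 0.18 (adjusted p 0.420 and 0.383 by limma). Whether Hsd17b11 acts on glucocorticoids was not examined. Of 12 mineralocorticoid and sodium transport genes, 4 were tested and all 4 had lower values, with a median of -0.15 and 0 at an unadjusted p under 0.05. The sign of this median was not stable: it was 0.26 over the 10 genes on the array with no filter, 0.077 with the hybridisation covariate and 0.11 with deficient array 3 as the only deficient array. Atp1b1, a subunit of the sodium pump, had -0.58 ± 0.29 (adjusted p 0.366) by its brightest probe set and 0.42 by the other tested one. Wnk1, a kinase of salt transport, had -0.22 ± 0.16 (adjusted p 0.494). Nedd4l, which marks the sodium channel for removal, had -0.09 ± 0.16 (adjusted p 0.799), and Edn1, the endothelin gene, -0.01 ± 0.26 (adjusted p 0.987).

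Of 14 inflammatory genes that the receptor is known to repress, 8 were tested, 3 higher and 5 lower, with a median of -0.23 and 0 at an unadjusted p under 0.05. The median was 0.041 without adequate array 1, 0.022 with deficient array 3 as the only deficient array and -0.062 with no filter. Of all genes 60.8% were lower. Icam1, an adhesion molecule of vessel walls, had -0.28 ± 0.19 (SE), the chemokine Cxcl1 -0.41 ± 0.34, the protease Mmp9 -0.36 ± 0.32 and the adhesion molecule Vcam1 -0.18 ± 0.16. Their adjusted p were 0.473, 0.560, 0.582 and 0.587 by limma. All 7 tested macrophage markers had lower values as well, with a median of -0.39. That median was -0.036 with deficient array 3 as the only deficient array and -0.037 with the hybridisation covariate. Of the 7 tested endothelial markers 5 were lower, against 60.8% of all genes, with a median of -0.24. Their mean was -0.22, -0.34 and -0.22 on deficient arrays 1 to 3. The groups did not overlap for 2 of the 7, against 18.2% of all genes. The part of either cell type in these values was not tested.

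**Figure D4:**
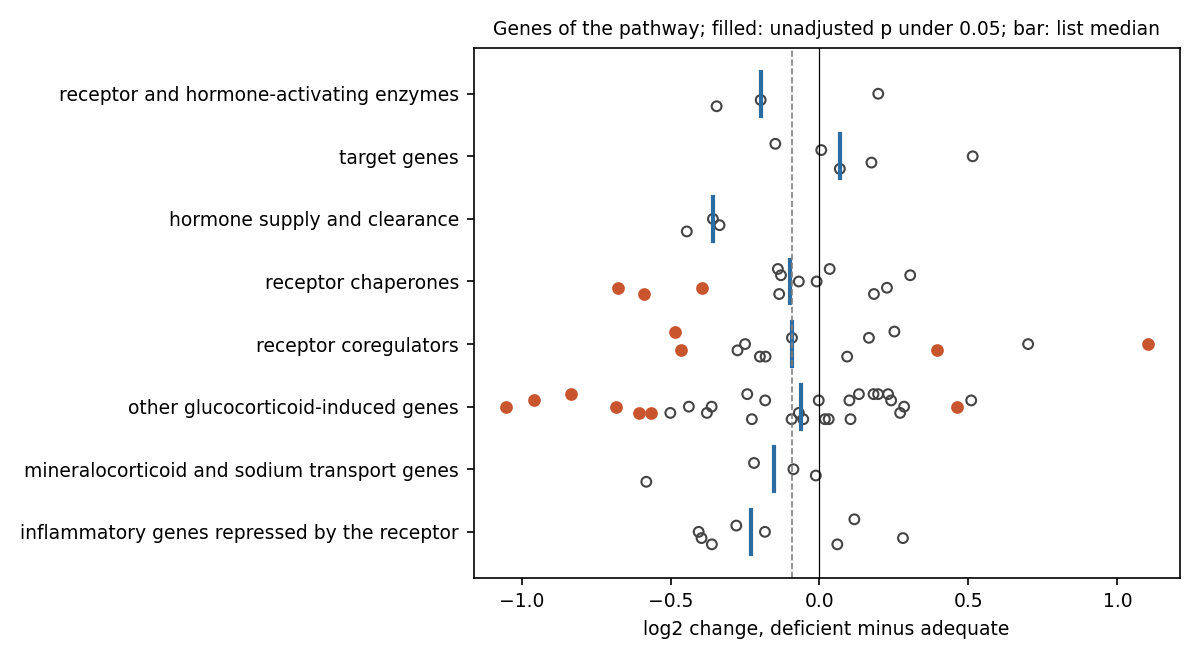
Log2 change, deficient minus adequate (horizontal axis), of each tested gene by list (rows), with the list median as a blue bar, filled points for an unadjusted p under 0.05 and a dashed line at the median of all genes tested, -0.09. Filled points are in 3 lists: 3 chaperones, 4 coregulators and 7 of the other induced genes.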

How the data were processed

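The deposited values are linear intensity signals, 1 per probe set and array, with MAS5 and Expression Console (Affymetrix) as the tools listed, unversioned, per the submitters' processing notes. The MAS5 algorithm condenses a probe set to a signal and scales each array; the 2% trimmed mean was 500 on all 6 arrays, so a change is relative to the whole array. Detection calls were not used here. Median signals ranged from 155 to 166.

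Tests excluded 57 controls. Signals were log2 transformed with no offset. Changes were fitted over 18625 probe sets with limma 3.58.1 in R 4.3.3 (lmFit, eBayes with a variance trend), two-sided, adjusted over all of them. The brightest tested probe set stood for a gene. The script was tested on simulated data. Members and lists were chosen with earlier results of these data known. Beside the members, the text names up to 4 genes with the smallest unadjusted p of each pathway list, H6pd and Dusp1. From the other induced genes it also names Anxa1, Rasd1, Per2, Foxo3 and Cavin2, a choice made after seeing their values. Marker lists are given as counts, medians and means, with some adipocyte markers and the fibroblast marker Thy1 named. Figures were drawn with matplotlib 3.10.9.

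Alternatives were other normalizations, filters and variance settings, an offset of 50, array weights, a replicate block, leaving out arrays, a hybridisation covariate and averaging probe sets by gene.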

Additional observations from a re-analysis of the deposited data

How the results depend on the processing

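Across 18 alternatives, 17 of 159 member values changed sign and 2, both of Klf9, passed the adjusted threshold, with array weights and without deficient array 3; of 428 values of the other named genes, 14 changed sign and 24 passed. The count of probe sets past the adjusted threshold was 3462 with array weights and ranged from 0 to 3614 when 1 array was left out. At an unadjusted p under 0.05 it was 2647, against 6678 with array weights, 788 with the hybridisation covariate, 1214 with deficient array 3 alone, 1641 genes where probe sets were averaged by gene, and 906 to 6572 when 1 array was left out. Members past the adjusted threshold were 0, but 1 with array weights and 0 to 1 when 1 array was left out; at an unadjusted p they were 0, but 2 with array weights, 2 with deficient array 3 alone and 0 to 2 when 1 array was left out. The median change of the receptor and enzyme genes, -0.20, was 0.00 with no filter, where Nr3c2 enters, -0.074 with the filter at the 60th percentile, where fewer genes are tested, -0.38 with array weights, -0.049 with the covariate, -0.022 with deficient array 3 alone, and -0.29 to 0.08 when 1 array was left out. That of the target genes, 0.07, was -0.30 with the covariate, -0.29 with deficient array 3 alone, -0.095 without deficient array 2 and 0.26 without deficient array 3, the range when 1 array was left out. Fits with deficient array 3 alone take their spread from the adequate arrays. The covariate was high only on deficient arrays 1 and 2. Its fit is therefore close to the contrast of deficient array 3 with the adequate arrays and is not a separate check.

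Signs turned with the covariate for Nr3c1 (-0.049), Hsd11b2 (0.065), the dimmer Fkbp5 probe set (0.32), Sgk1 (-0.49), Errfi1 (-0.40), Atp1b1 (0.15), Edn1 (0.39), Icam1 (0.061) and Wnk1 (0.0061). With deficient array 3 alone they turned for Nr3c1 (-0.022), the dimmer Fkbp5 probe set (0.39), Sgk1 (-0.50), Errfi1 (-0.46), Atp1b1 (0.21), Edn1 (0.38), Icam1 (0.10), Wnk1 (0.0091) and Hsd17b11 (0.0051). Sgk1 was -0.0083 after quantile normalization and Smarca4 0.036 when its probe sets were averaged. When 1 array was left out, Fkbp5 ranged from -0.066 to 0.41, its dimmer probe set from -0.37 to 0.056, Hsd11b2 from -0.46 to 0.16, Sgk1 from -0.27 to 0.26, Errfi1 from -0.095 to 0.33 and Edn1 from -0.21 to 0.10. The cause of these shifts was not tested.

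With the replicate number as a block, 0 probe sets passed and Klf9 had 0.51 (adjusted p 0.341); no call on a member changed. The block raised the count of probe sets with an unadjusted p under 0.05 by limma from 2647 to 3235. Deviations of same-numbered arrays correlated across probe sets only weakly, at 0.107, 0.153 and 0.007. Of the 6 arrays, 5 correlated best with their own number in the other group. These outcomes come from the same few correlations and are not independent, and the count expected without pairing was not worked out. Whether the numbers mark a pairing is not settled by these values. The 4 member probe sets under the filter carry no test.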

Other observations

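Among members whose log2 signal ranged over more than 1 across the 6 arrays, the genes with the most similar pattern were found by the root-mean-square difference of log2 signals, each centred on its adequate mean, over 10590 other genes. This is a description of 6 arrays and carries no test. For Hsd11b2 these were Insyn1 (0.06), Oasl (0.10) and Sertad2 (0.11), which were also lowest on deficient array 2, at -0.87, -0.75 and -0.86. For Klf9 they were Immp2l (0.09), Lrig3 (0.09) and Nos1ap (0.11), highest on deficient array 2 at 0.95, 0.82 and 0.75. For Sgk1 they were Saa3 (0.07), Dnajb6 (0.11) and Mlh3 (0.15); Saa3 was at 0.60 on deficient array 2 and -0.43 on deficient array 3.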
